A study of Mus musculus with 6 samples.

Results

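The 7 genes described here encode the machinery that controls the sterol regulatory element binding proteins (SREBPs), and they were taken by gene symbol from the 39017 Ensembl identifiers of a mouse count table. They are the factors Srebf1 and Srebf2, the escort Scap, the retention proteins Insig1 and Insig2, and the proteases Mbtps1 and Mbtps2. All 7 symbols matched a single identifier each, and all 7 passed the filter on low counts. RNA was recovered with tagged ribosomes from the corpus callosum, a white matter tract, of C57BL/6 mice, in 3 libraries from animals given 0.2% cuprizone in the diet (replicates 30, 31 and 32) and 3 control libraries (replicates 24, 26 and 27). The control libraries carry the title Vehicle and the treatment label Control, and what the vehicle was is not in the labels. Cuprizone, which binds copper, causes loss of oligodendrocytes and of myelin when eaten. Mice of both groups carry RiboTag, which puts an HA tag on the ribosomal protein RPL22 where Cre is active, and Olig1-Cre, which is active in the oligodendrocyte lineage. The protocol describes young adult females aged 8 to 10 weeks, a cuprizone diet of 6 or 9 weeks, and a return to control diet of 3 weeks. Which of these stages the cuprizone libraries represent is not in the labels, and nor is whether each library came from a separate mouse, so p-values measure the spread between these libraries.

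SREBPs are made as precursors in the membrane of the endoplasmic reticulum, bound to SCAP. When sterols are scarce SCAP carries them in COPII vesicles to the Golgi, where the site-1 protease (gene Mbtps1) and then the site-2 protease (gene Mbtps2) cut out the part that enters the nucleus. When sterols are plentiful an INSIG protein holds SCAP and its cargo in the endoplasmic reticulum. SREBP-2, from Srebf2, mainly drives cholesterol synthesis and uptake genes, and SREBP-1, from Srebf1, mainly drives fatty acid synthesis genes. Srebf1 is also induced by the liver X receptors, which sense oxysterols, and Insig1 is itself an SREBP target, so its transcript is widely used as a readout of SREBP activity. Oligodendrocytes make most of the cholesterol that goes into myelin, and mice whose Schwann cells, the glia of peripheral nerve, lack SCAP make myelin slowly.

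The promoters of the members whose transcripts stood farthest from control (Insig1, Srebf1 and Srebf2) are shown because sterol-responsive elements have been described in them. The windows run from 250 bases before to 50 bases after a RefSeq start site on GRCm38.p6, the assembly also called mm10, 5′ to 3′ on the strand of the gene. Capitals mark TCACCCCA, a core of the sterol regulatory element, in Srebf2, the palindromic E-box CACGTG, which SREBPs can also bind, in Insig1, and, in Srebf1, a stretch of the liver X receptor elements described for the mouse SREBP-1c promoter, read on the opposite strand. They stand at chr15:82147019-82147318 (plus strand), chr5:28071162-28071461 (plus strand) and chr11:60210422-60210721 (minus strand, the most downstream of 3 Srebf1 windows).
Srebf2: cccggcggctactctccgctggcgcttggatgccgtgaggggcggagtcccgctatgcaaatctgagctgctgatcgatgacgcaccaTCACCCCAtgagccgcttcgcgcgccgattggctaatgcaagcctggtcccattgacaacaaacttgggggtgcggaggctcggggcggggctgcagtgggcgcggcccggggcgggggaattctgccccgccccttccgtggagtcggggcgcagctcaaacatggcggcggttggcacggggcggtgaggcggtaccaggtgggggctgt
Insig1: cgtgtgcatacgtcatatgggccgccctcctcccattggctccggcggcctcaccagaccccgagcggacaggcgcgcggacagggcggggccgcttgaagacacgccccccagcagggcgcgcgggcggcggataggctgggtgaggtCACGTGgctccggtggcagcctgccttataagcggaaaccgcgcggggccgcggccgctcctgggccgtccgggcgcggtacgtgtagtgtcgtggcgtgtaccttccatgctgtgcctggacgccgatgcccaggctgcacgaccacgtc
Srebf1: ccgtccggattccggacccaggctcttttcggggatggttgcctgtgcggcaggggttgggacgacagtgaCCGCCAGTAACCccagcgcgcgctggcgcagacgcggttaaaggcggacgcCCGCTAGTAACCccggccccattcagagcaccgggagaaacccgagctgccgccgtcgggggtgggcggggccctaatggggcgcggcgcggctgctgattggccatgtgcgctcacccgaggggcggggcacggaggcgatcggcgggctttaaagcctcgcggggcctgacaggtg
On either strand TCACCCCA was present in 1.56% of the 32851 mouse windows of this length and CACGTG in 7.15%. The wider form TCACNCCAC, which overlaps TCACCCCA where a C follows it, was in 1.24% of all windows and in none of the 12 windows of the 7 genes. The receptor stretch was chosen after the sequences were seen, and with 1 base left free it was found at 2 places in the Srebf1 window and in 2 of the 32851 windows (0.00609%). CACGTG was also present in both Scap windows, which overlap and hold the same single site. These are matches of letters, and no binding was measured. The table counts reads per gene, so the transcripts from the 3 Srebf1 starts were not separated.

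Total counts ran from 19455245 to 22381307 in the cuprizone libraries and from 18549360 to 18771737 in the control libraries. In the list of 10 mature oligodendrocyte markers 9 fell with edgeR, which called 5.70% of all genes tested lower. The summed level of the list ran from 8191 to 15402 CPM in cuprizone and from 61581 to 83329 CPM in control (CPM, counts scaled to a common library size). Of 8 further markers of the oligodendrocyte lineage 3 fell with edgeR, Olig1, Sox10 and Enpp6. Olig2, Pdgfra, Cspg4, Ptprz1 and Gpr17 did not pass, with log2 fold changes of -0.46, -0.32, -0.02, -0.11 and 0.05. The sum of the 8 ran from 1688 to 2477 CPM in cuprizone and from 3182 to 3650.1 CPM in control. Olig1 is also the gene whose promoter drives the Cre. In bulk RNA of this kind, fewer cells of a type and less RNA per cell cannot be told apart. Markers of other cells were present in both groups, and no marker of any list was at 0 in all libraries. No library title names RNA from before the recovery of tagged ribosomes, so the share of RNA from other cells was not measured. None of 8 astrocyte, 9 microglia, 7 neuron and 6 vascular markers passed edgeR's test, with 0, 1, 0 and 2 higher at an unadjusted p under 0.05, 0, 1, 0 and 1 higher with DESeq2, and none with limma-voom. Cuprizone replicate 32 stood apart from the other cuprizone libraries. Its summed microglial markers were at 3902 CPM, against 1715 and 2162 CPM in replicates 30 and 31 and 1155 to 2222 CPM in control. Its summed astrocyte markers were at 15543 CPM, against 25250 and 29955 CPM in replicates 30 and 31 and 21908 to 24687 CPM in control. Replicate 32 was also the highest of all 6 libraries in summed neuron markers, at 3107 CPM, against 2343 and 1654 CPM in replicates 30 and 31 and 1412 to 2308 CPM in control. Its summed vascular markers were the highest as well, at 127 CPM, against 78.9 and 57.4 CPM in replicates 30 and 31 and 49.97 to 57.6 CPM in control. All 7 genes of the SREBP machinery were lower in replicate 32 than in replicates 30 and 31, and the part of cell content in this was not tested.

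Insig1 fell to 0.324 times its control level in cuprizone and was the only one of the 7 genes to pass edgeR's quasi-likelihood test at an adjusted p of 0.05. The other 6 did not pass. Srebf2, Scap and Mbtps1 were below control in every library by smaller amounts, Srebf1 was above control in 2 of 3 libraries, and the libraries of both groups overlapped for Insig2 and Mbtps2. One member of 7 was thus called lower and 0 higher, where over the 16569 genes tested 5.70% were called lower, 1.87% higher and 7.57% in either direction. With DESeq2, 2 of 7 were lower and 0 higher (8.45% and 5.20% of all genes tested), and with limma-voom 1 was lower and 0 higher (5.87% and 1.77%). The libraries of the groups did not overlap for 4 of the 7, all lower in cuprizone, and over all genes tested this was so for 17.6% lower and 12.6% higher. The median log2 fold change of the 7 was -0.18, beside 0.02 over all genes tested, and 5 of the 7 were negative, beside 47.4% of all genes tested. At an unadjusted p under 0.05, 2 members were lower and 1 higher, where 12.8% of all genes tested were lower and 23.3% differed in either direction.

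**Figure D1:**
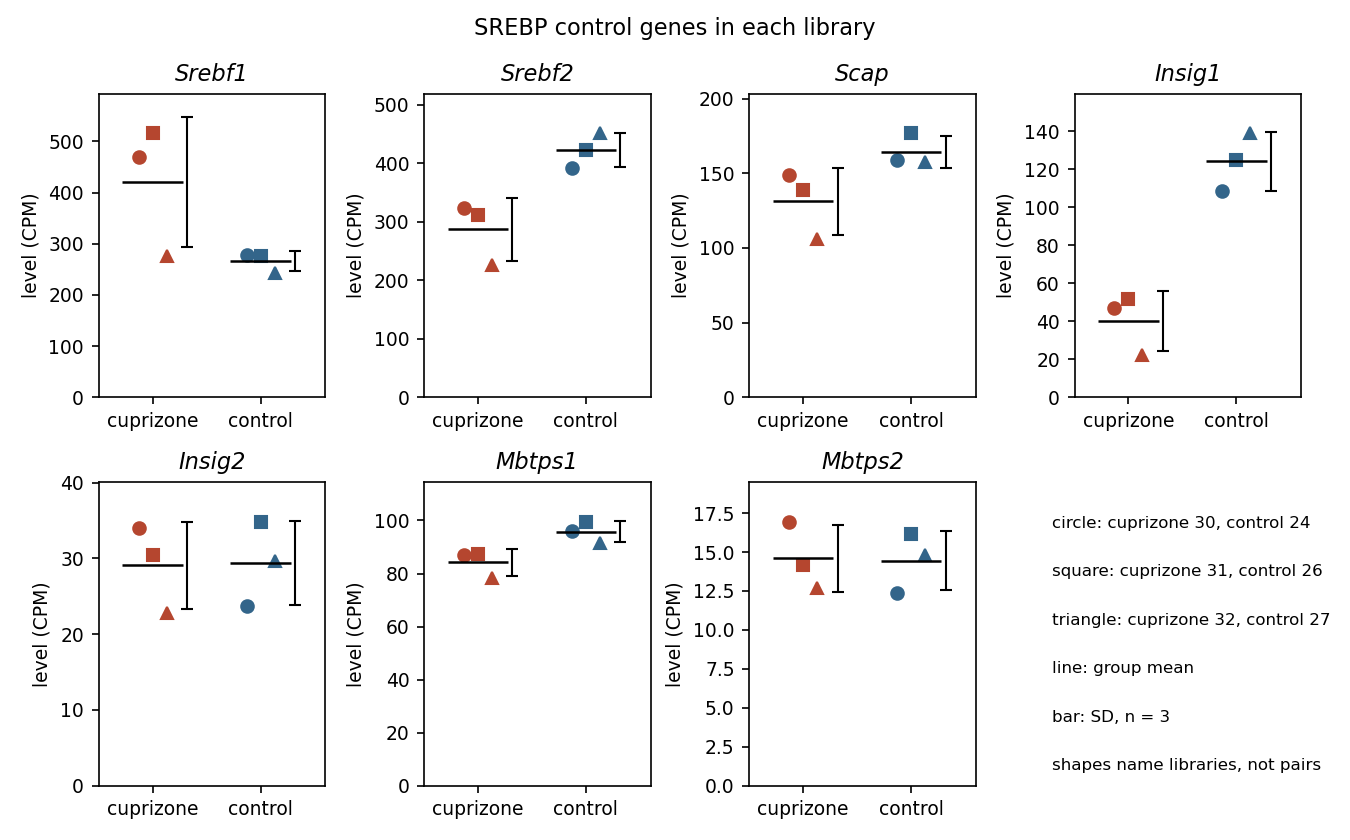
Level of each of the 7 SREBP control genes (CPM, axes from 0) in every library, cuprizone on the left and control on the right of each panel, with the group mean as a line and the SD as a bar (n = 3). All 3 cuprizone values of Insig1 lie between 22.2 and 51.5 CPM, below the control values of 108 to 139 CPM, and the triangle of cuprizone replicate 32 is the lowest cuprizone value in each panel.

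Among the factors, Srebf2 (ENSMUSG00000022463, chromosome 15, 82147181 to 82205379 in GRCm38), which encodes SREBP-2, was at 324, 311 and 226 CPM in cuprizone replicates 30, 31 and 32, against 393, 423 and 452 CPM in control replicates 24, 26 and 27. The groups did not overlap, and replicate 32 was the lowest. The means were 287 ± 53.4 CPM in cuprizone and 423 ± 29.6 CPM in control (SD, n = 3 each), a log2 fold change of -0.56 ± 0.18 (SE) with a 95% interval of -0.98 to -0.14. This did not pass edgeR's test (adjusted p = 0.115) or limma-voom (adjusted p = 0.103). DESeq2, which called 8.45% of all genes lower, called it lower (adjusted p = 0.0239). Mir33, a microRNA gene in an intron of Srebf2, had 0 counts in all 6 libraries, and libraries of this kind do not capture mature microRNAs.

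Srebf1 (ENSMUSG00000020538, chromosome 11, 60199089 to 60222581), which encodes SREBP-1a and SREBP-1c, was at 469, 516 and 275 CPM in cuprizone replicates 30, 31 and 32, against 278, 276 and 243 CPM in control replicates 24, 26 and 27. Replicates 30 and 31 were above every control library, and replicate 32 lay within the control range. The means were 420.3 ± 128 CPM in cuprizone and 266 ± 19.7 CPM in control (SD, n = 3 each), a log2 fold change of 0.66 ± 0.24 (SE) with a 95% interval of 0.09 to 1.23. It did not pass edgeR's test (adjusted p = 0.16), nor DESeq2 (adjusted p = 0.0577). Without cuprizone replicate 32 the log2 fold change was 0.89 and passed edgeR's test (adjusted p = 0.00844), and in the other 12 alternatives the adjusted p ran from 0.0577 to 0.396. The last Srebf1 exon shares 109 bases, 1.93% of the exonic length of the gene, with Rai1, which is read from the other strand, and 66 exonic bases (1.17%) lie in the microRNA gene Mir6922 on its own strand. How the counting treated strand is not stated in the labels.

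The ratio of Srebf1 to Srebf2 counts within a library does not depend on how libraries are scaled. On the log2 scale it was 0.53, 0.73 and 0.29 in cuprizone replicates 30, 31 and 32, against -0.50, -0.62 and -0.90 in control replicates 24, 26 and 27. Every cuprizone library, replicate 32 included, lay above every control library. The difference of the means was 1.19, with means of 0.52 ± 0.22 in cuprizone and -0.67 ± 0.20 in control (SD, n = 3 each), and the exact 2-sided permutation test gave p = 0.1, the smallest that 3 against 3 libraries allow. Leaving out a library gave differences of 1.07 to 1.30.

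Scap (ENSMUSG00000032485, chromosome 9, 110333288 to 110384950), the sterol-sensing escort, was at 149, 139 and 106 CPM in cuprizone replicates 30, 31 and 32, against 159, 177 and 157 CPM in control replicates 24, 26 and 27. The groups did not overlap, by a margin of a few CPM. The means were 131 ± 22.4 CPM in cuprizone and 164 ± 10.8 CPM in control (SD, n = 3 each), and the log2 fold change of -0.33 ± 0.15 (SE, 95% interval -0.69 to 0.04) did not pass edgeR's test (adjusted p = 0.26). A transcript of unknown coding status on the opposite strand, 5830462I19Rik, shares 985 bases or 13.2% of the exonic length of Scap. It had 277 to 425 counts in cuprizone and 322 to 399 counts in control, against 2247 to 3299 and 2698 to 3122 counts for Scap, and without a known strand setting reads of the shared stretch cannot be assigned.

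Of the retention proteins, Insig1 (ENSMUSG00000045294, chromosome 5, 28071363 to 28078662) was at 46.8, 51.5 and 22.2 CPM in cuprizone replicates 30, 31 and 32, against 108, 125 and 139 CPM in control replicates 24, 26 and 27. The groups were far apart, and replicate 32 was the lowest of all. The means were 40.2 ± 15.7 CPM in cuprizone and 124 ± 15.4 CPM in control (SD, n = 3 each), and these rest on 471 to 1205 counts in cuprizone and 1839 to 2388 counts in control. The log2 fold change was -1.63 ± 0.30 (SE), a fold of 0.324, with a 95% interval of -2.34 to -0.91 and an edgeR adjusted p of 0.0215. Its adjusted p was 7.8e-06 with DESeq2 and 0.0198 with limma-voom. It missed the threshold when a library was left out in 4 of 6 cases, with adjusted p of 0.0648 without cuprizone replicate 30 and 0.0549, 0.0736 and 0.0789 without control replicates 24, 26 and 27, while the log2 fold change stayed between -1.85 and -1.34. Without cuprizone replicate 32 it was -1.34 (adjusted p = 0.00386).

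Insig2 (ENSMUSG00000003721, chromosome 1, 121304353 to 121332589), the second retention protein, whose promoter is not known as an SREBP target, was at 33.9, 30.5 and 22.8 CPM in cuprizone replicates 30, 31 and 32, against 23.8, 34.9 and 29.7 CPM in control replicates 24, 26 and 27. The groups overlapped. The means were 29.1 ± 5.71 CPM in cuprizone and 29.4 ± 5.55 CPM in control (SD, n = 3 each), with a log2 fold change of -0.02 ± 0.20 (SE) and an edgeR adjusted p of 0.968. The 95% interval of -0.48 to 0.45 spans 0, and the sign turned with upper-quartile scaling or with cuprizone replicate 32 or control replicate 26 left out.

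The 2 retention genes stood in different proportion in the groups. The log2 ratio of Insig1 to Insig2 counts was 0.46, 0.76 and -0.04 in cuprizone replicates 30, 31 and 32, against 2.19, 1.84 and 2.23 in control replicates 24, 26 and 27. The groups did not overlap, and the means were 0.39 ± 0.40 in cuprizone and 2.09 ± 0.21 in control (SD, n = 3 each), a difference of -1.69. The log2 ratio of Insig1 to Scap, the protein it holds, averaged -1.78 ± 0.42 in cuprizone and -0.41 ± 0.20 in control (SD, n = 3 each), a difference of -1.37, again with no overlap. Both had p = 0.1 by the exact 2-sided permutation test, the smallest possible, and an adjusted p of 0.133 over the 4 ratios computed, as had the ratio of the factors.

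**Figure D2:**
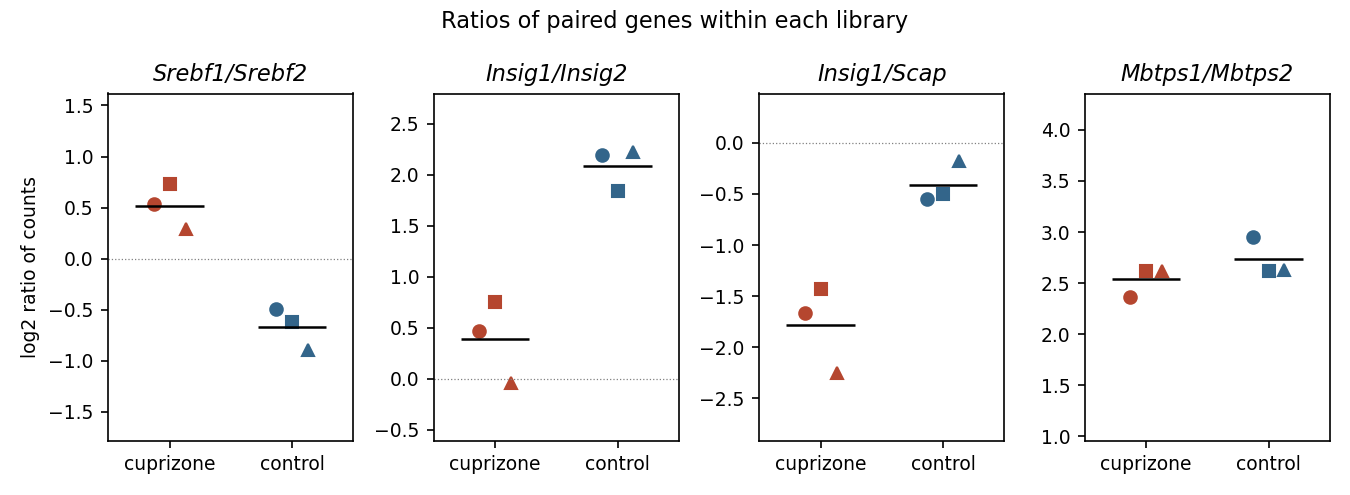
Log2 ratio of the raw counts of paired genes within each library, cuprizone left and control right in each panel, with points for libraries and lines for group means (axes of equal span). The cuprizone points of Srebf1/Srebf2 (0.29 to 0.73) lie above the control points (-0.90 to -0.50), those of Insig1/Insig2 and Insig1/Scap lie below, and those of Mbtps1/Mbtps2 overlap.

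Neither protease passed the test. Mbtps1 (ENSMUSG00000031835, chromosome 8, 119508156 to 119558735), which makes the first cut, was at 87.2, 87.3 and 78.3 CPM in cuprizone replicates 30, 31 and 32, against 96.0, 99.6 and 91.7 CPM in control replicates 24, 26 and 27. The groups did not overlap, but the gap was small. The log2 fold change of -0.18 ± 0.11 (SE, 95% interval -0.43 to 0.06) did not pass edgeR's test (adjusted p = 0.339). Mbtps2 (ENSMUSG00000046873, chromosome X, 157535371 to 157598715), the metalloprotease that makes the second cut within the membrane, was at 16.95, 14.2 and 12.7 CPM in cuprizone replicates 30, 31 and 32, against 12.4, 16.2 and 14.8 CPM in control replicates 24, 26 and 27. The groups overlapped, and the log2 fold change was 0.02 ± 0.16 (SE, 95% interval -0.37 to 0.40, edgeR adjusted p = 0.966), with a negative sign when cuprizone replicate 30 or control replicate 24 was left out. Yy2, a protein-coding gene on the same strand, covers 28.4% of the annotated exonic bases of Mbtps2. It had 36 to 63 counts in cuprizone and 26 to 42 counts in control, beside 269 to 376 and 210 to 285 counts for Mbtps2. The log2 ratio of Mbtps1 to Mbtps2 averaged 2.54 ± 0.15 in cuprizone and 2.73 ± 0.19 in control (SD, n = 3 each; exact 2-sided permutation p = 0.3, adjusted p = 0.3).

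Levels were compared between the genes per exonic length, as transcripts per library total (TPM). In cuprizone the order was Srebf1 at 283 ± 89.3, Srebf2 at 151 ± 33.2, Scap at 66.8 ± 13.9, Insig1 at 49.3 ± 19.9, Insig2 at 31.8 ± 7.53, Mbtps1 at 30.2 ± 2.92 and Mbtps2 at 5.48 ± 1.10 TPM (SD, n = 3). In control it was Srebf2 at 195 ± 16.02, Srebf1 at 156 ± 14.1, Insig1 at 133 ± 17.7, Scap at 73.3 ± 7.41, Mbtps1 at 30.1 ± 2.16, Insig2 at 28.2 ± 6.24 and Mbtps2 at 4.74 ± 0.78 TPM (SD, n = 3). Srebf1 thus exceeded Srebf2 in 3 of 3 cuprizone libraries, and Srebf2 exceeded Srebf1 in 3 of 3 control libraries. By its mean Insig1 stood between the factors and Scap in control, and below Scap in each cuprizone library. In cuprizone the neighbouring ranges of Srebf1 and Srebf2, Scap and Insig1, Insig1 and Insig2, and Insig2 and Mbtps1 overlapped, and in control those of Srebf1 and Insig1 and of Mbtps1 and Insig2 did. Mbtps2 was the lowest in every library.

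**Figure D3:**
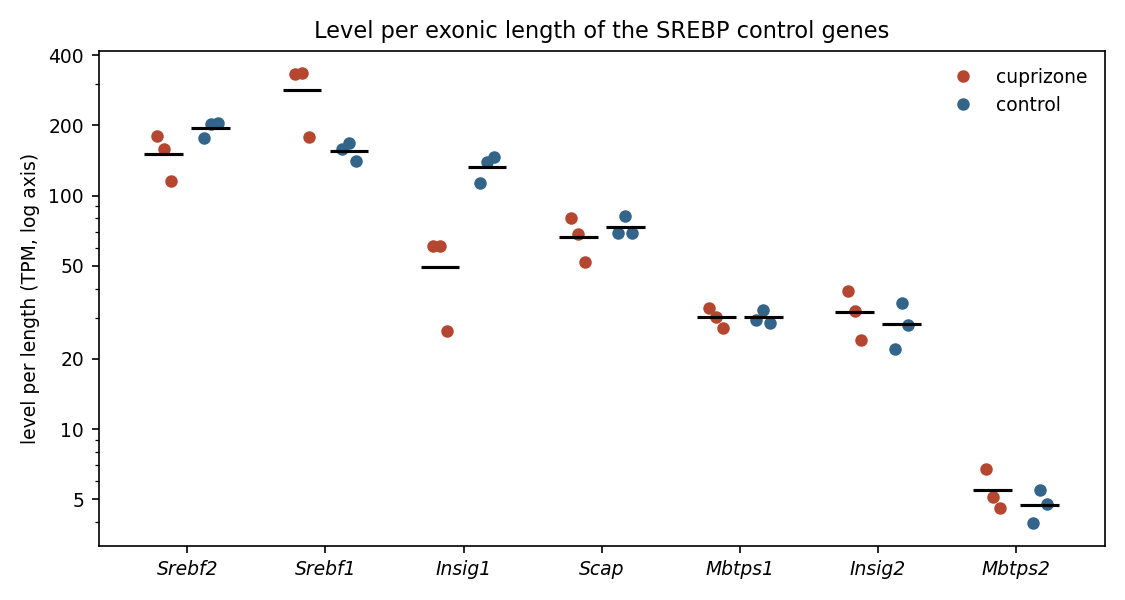
Level per exonic length (TPM, log axis) of the 7 genes, ordered by their control mean, with cuprizone points left and control points right at each gene and lines at group means (n = 3). Srebf1 (mean 283 TPM in cuprizone and 156 TPM in control) and Srebf2 (151 and 195 TPM) change places at the top of the order, and Insig1 stands at 49.3 TPM in cuprizone, against 133 TPM in control.

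The other proteins known to act on SREBPs, SCAP or INSIGs, and the coat that carries SCAP, were listed apart. Over all genes tested edgeR called 7.57% in either direction, so the absence of calls in lists this short says little about them. Of 17 modulators, which include the ubiquitin ligases Rnf139 and Rnf145 and the liver X receptors, none passed by edgeR, by DESeq2 or by limma-voom. At an unadjusted p under 0.05 there was 1 in edgeR, beside 23.3% of all genes tested. The list had a median log2 fold change of 0.06. Nr1h2 and Nr1h3, which encode the liver X receptors beta and alpha, were at 73.7 ± 8.97 and 7.33 ± 1.21 CPM in cuprizone, against 85.2 ± 4.80 and 5.91 ± 1.30 CPM in control (SD, n = 3 each). Their log2 fold changes were -0.21 and 0.31, with edgeR adjusted p of 0.36 and 0.446. None of 10 genes of the COPII coat passed by any of these tools, and their median was -0.03. In edgeR 1 of the 10 had an unadjusted p under 0.05, beside 23.3% of all genes tested.

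The target genes of the factors stood in 3 lists. Over all genes tested edgeR called 5.70% lower, DESeq2 8.45% and limma-voom 5.87%. In edgeR 12.8% of all genes tested were lower at an unadjusted p under 0.05. Of 20 sterol synthesis genes 15 fell and none rose with edgeR (DESeq2 gave 18, limma-voom 15, and an unadjusted p under 0.05 in edgeR 19), and their median log2 fold change was -1.15. Insig1 lay toward the low end of these enzymes: 2 of the 20, Hmgcs1 and Cyp51, had a lower log2 fold change and 18 a less negative one. Hmgcs1, which feeds the mevalonate pathway, was at 168, 185 and 125 CPM in cuprizone replicates 30, 31 and 32, against 491, 522 and 638 CPM in control replicates 24, 26 and 27, with a log2 fold change of -1.79 ± 0.20 (SE, edgeR adjusted p = 0.00314).

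Of 6 sterol uptake and transport genes 4 fell with edgeR, among them Stard4, Tmem97 and Npc1, beside 5.70% of all genes tested. The median of the list was -1.09. Stard4, a sterol carrier of the cytosol, was at 14.5, 11.5 and 11.3 CPM in cuprizone replicates 30, 31 and 32, against 26.8, 29.7 and 32.8 CPM in control replicates 24, 26 and 27. The groups did not overlap, and its log2 fold change was -1.26 ± 0.15 (SE, edgeR adjusted p = 0.00385). Without control replicate 27 only 2 of the 6 passed as lower, with Tmem97 at an adjusted p of 0.06, and Npc1 did not pass without cuprizone replicate 30 or any 1 of the control libraries (highest adjusted p = 0.114).

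Of 16 fatty acid synthesis genes 4 fell and none rose with edgeR (DESeq2 gave 7, limma-voom 5, and an unadjusted p under 0.05 in edgeR 8), and their median of -0.40 was nearer 0 than that of the sterol lists. Over all genes tested 5.70% fell with edgeR, 8.45% with DESeq2, 5.87% with limma-voom and 12.8% at that unadjusted p. Elovl6, an elongase, was at 42.8 ± 7.15 CPM in cuprizone and 116 ± 8.73 CPM in control (SD, n = 3 each), with a log2 fold change of -1.44. Acaca, which makes malonyl-CoA, Acss2, which activates acetate, and Thrsp, known from lipogenic tissue, had log2 fold changes of -0.88, -1.27 and -0.73. Without cuprizone replicate 30 or control replicate 26 or 27 only 2 of the 16 passed as lower. Acss2 missed the threshold in these 3 cases (adjusted p up to 0.0612), and Thrsp in 6 of 13 alternatives (up to 0.143). Fasn and Scd2 had log2 fold changes of -0.67 and -0.95 and did not pass edgeR's test (adjusted p = 0.0591 and 0.13). DESeq2 called both lower (adjusted p = 9.52e-04 and 0.00978), limma-voom called Fasn lower (adjusted p = 0.0497), and Fasn passed edgeR's test without cuprizone replicate 32 (adjusted p = 0.0363).

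With each gene set against its control mean, the average log2 difference of the sterol synthesis list was -0.99, -0.96 and -1.38 in cuprizone replicates 30, 31 and 32, that of the fatty acid list was -0.42, -0.24 and -1.04, and that of Insig1 was -1.39, -1.25 and -2.45. Srebf2 stood at -0.38, -0.44 and -0.90 and Srebf1 at 0.82, 0.96 and 0.06 on the same scale (log2 of CPM plus 0.5). Insig1, Srebf2 and both target lists were below 0 in each cuprizone library and lowest in replicate 32, and Srebf1 was above 0 in each, by little in replicate 32. The myelin markers averaged -3.26, -2.46 and -3.54 on this scale, and their part in the differences of Insig1, Srebf2 and the target lists was not tested.

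Of 7 liver X receptor targets 1 rose with edgeR (3 with DESeq2, 1 with limma-voom). Their median was 0.73, and 3 of the 7 were negative. Over all genes tested 1.87% were called higher with edgeR, 5.20% with DESeq2 and 1.77% with limma-voom. The target that rose with edgeR was Abca1, which exports cholesterol. Its level was 231, 174 and 119 CPM in cuprizone replicates 30, 31 and 32, against 58.3, 63.5 and 42.6 CPM in control replicates 24, 26 and 27. For Abca1 every cuprizone library was above every control library, and replicate 32 was the lowest cuprizone library. The list as a whole differed from Abca1 in this. Its average log2 difference from control was 0.44, 0.58 and 0.61 in cuprizone replicates 30, 31 and 32, highest in replicate 32. The adjusted p of Abca1 reached 0.0567 without control replicate 24 or 27, when none of the 7 passed. Of 8 other substrates of the site-1 or site-2 protease 7 were tested, 1 rose and 1 fell, with a median of -0.17. With edgeR 1.87% of all genes tested rose and 5.70% fell. Creb3l1, a membrane-bound factor, was at 30.4 ± 3.68 CPM in cuprizone and 15.1 ± 3.04 CPM in control (SD, n = 3 each; log2 fold change 1.01), and did not pass without cuprizone replicate 30 or control replicate 26 or 27 (adjusted p up to 0.0863). Gnptab, whose product tags lysosomal enzymes after the site-1 protease cuts it, was at 59.7 ± 6.95 CPM in cuprizone and 117 ± 13.5 CPM in control (SD, n = 3 each; log2 fold change -0.96).

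**Figure D4:**
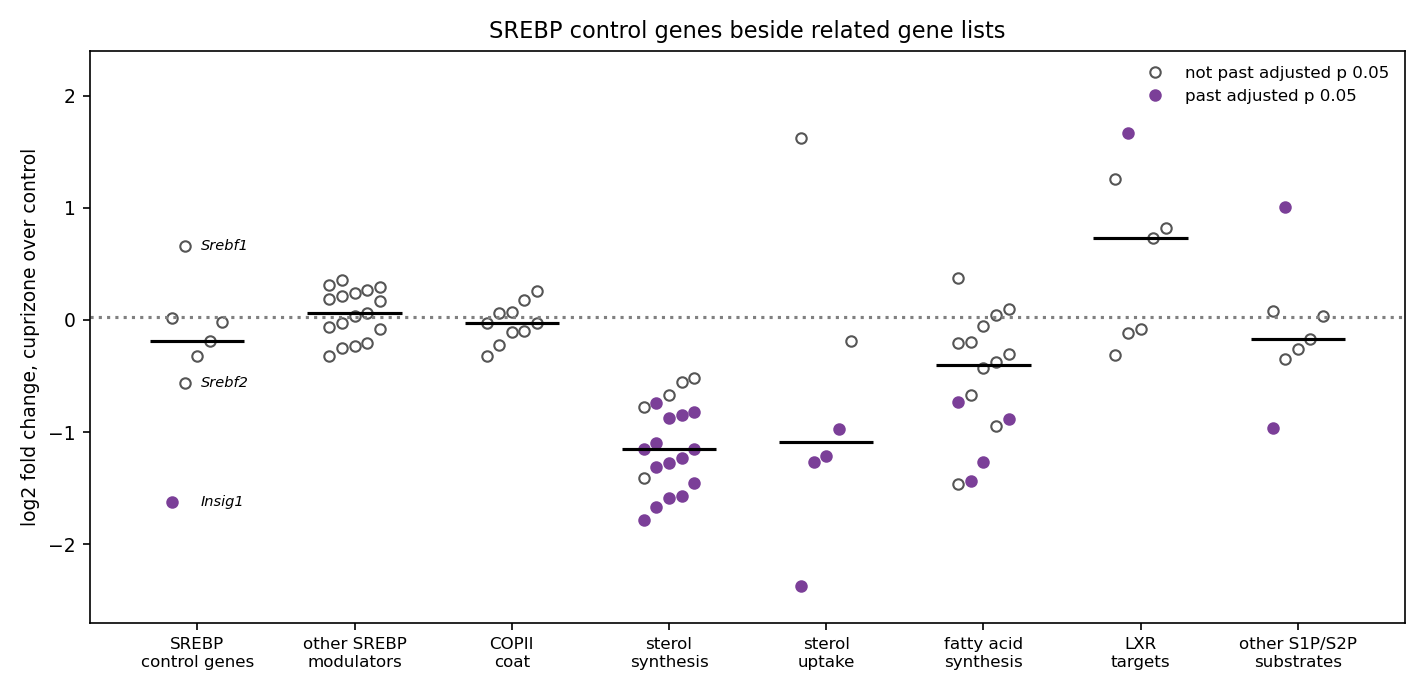
Log2 fold change (cuprizone over control) of each tested gene in the 7 SREBP control genes and 7 related lists, filled where the edgeR adjusted p is under 0.05, with lines at list medians and a dotted line at the median of all genes tested (0.02). Insig1 (-1.63) lies within the range of the sterol synthesis genes (median -1.15), apart from the other SREBP control genes, the modulators (median 0.06) and the coat (median -0.03).

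The genes whose profiles over the 6 libraries lay closest to those of the 3 members with the smallest p were sought among 11205 other protein-coding genes, by the root mean square difference of log2 levels relative to the control mean. Closest to Insig1 were Elovl7, a fatty acid elongase (0.04), Msmo1, a sterol methyl oxidase (0.07), and Fads6, a desaturase-like protein (0.11), which had log2 fold changes of -1.64, -1.57 and -1.54 and passed edgeR's test with adjusted p of 0.0165, 0.0189 and 0.0217. Closest to Srebf2 were Abca7, a lipid transporter (0.04), Tmem260 (0.05) and Sgce (0.06), and closest to Srebf1 were Steap3, a metalloreductase (0.10), Stom, a membrane protein (0.10), and Nsun3, an RNA methyltransferase (0.10). None of these 6 passed edgeR's test, with adjusted p from 0.058 to 0.235. All these genes were picked for likeness over the same libraries. Fold changes and test outcomes near those of the member therefore follow from the choice.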

How the data were processed

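The authors deposited raw counts, 1 column for each of 6 libraries, by Ensembl gene. Per the labels' protocols, RNA was co-precipitated with anti-HA antibody and made into libraries with Kapa reagents. The submitters' processing notes name bcl2fastq 2.17 and mm10. No aligner, counter, annotation release or strand setting is stated in the labels. Columns were matched to samples by title, and groups came from titles.

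Names, spans and lengths came from GENCODE M21 (GRCm38), which matched 37693 of 39017 identifiers. Promoter windows came from RefSeq on GRCm38.p6. Tests used edgeR 4.0.16 (R 4.3.3): filterByExpr (minimum count 10, minimum total 15) kept 16569 genes, sizes were scaled by TMM, and groups were compared by the robust quasi-likelihood test, 2-sided, at a Benjamini-Hochberg adjusted p of 0.05 over the whole table. SE is the log2 fold change over the square root of F. DESeq2 1.42.0, limma-voom (limma 3.58.1), other scalings and filters and leaving out each library were alternatives. Within groups no libraries held the same counts within sampling noise (chi-square per degree of freedom 24.4 to 101), so none was treated as a library deposited again. This does not show that they came from separate mice. On counts simulated for 16569 genes of this comparison the procedure recovered 84.4% of genes at a log2 change of -2, 47.9% at -1, 42% at 1 and 90% at 2. Within-library ratios used counts plus 0.5. The members, lists and tests were chosen with earlier results of these data known. Besides the members, genes were named by a rule: up to 4 of each list past the threshold with the smallest adjusted p, a short set of regulators and targets, and the 3 closest profiles. Genes that share exonic bases with a member, and Mir33, are named as well. Some genes of the lists are not reported here by name.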

Additional observations from a re-analysis of the deposited data

How the results depend on the processing

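No paired analysis was possible because the groups share no replicate number. Over 13 alternatives 4 of the 7 genes (Scap, Insig2, Mbtps1 and Mbtps2) never passed the threshold. Insig1 had the same sign in all 13, passed in 9, and ranged from -1.85 to -1.34 with a library left out. DESeq2 called 2 members lower, the second being Srebf2 (log2 fold change -0.55), and without cuprizone replicate 32 Srebf1 rose (0.89), so that leaving out a library gave 0 to 1 members higher, 0 to 1 lower, a range of 0.49 to 0.89 for Srebf1 and of -0.65 to -0.41 for Srebf2. The sign of Insig2 turned with upper-quartile scaling (0.0405), without cuprizone replicate 32 (0.13) and without control replicate 26 (0.13), in a range of -0.14 to 0.13. That of Mbtps2 turned without cuprizone replicate 30 (-0.11) and without control replicate 24 (-0.06), in a range of -0.11 to 0.11. The cause of these changes was not tested. Over all genes 310 were called higher and 945 lower (75.3% lower). DESeq2 called 862 and 1400 (61.9% lower), and with a library left out 65 to 464 were higher and 474 to 963 lower. The other scalings moved the median of all genes by less than 0.1.

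With a library left out, 10 to 16 of the 20 sterol synthesis genes were called lower and 0 higher, the fewest without control replicate 27. In the same runs sterol uptake genes gave 0 to 1 higher and 2 to 4 lower, and fatty acid genes 0 to 1 higher and 2 to 5 lower. Liver X receptor targets gave 0 to 1 higher, and other protease substrates 0 to 1 higher. DESeq2 gave 1 sterol uptake gene higher (limma-voom 1), 7 fatty acid genes lower and 3 liver X receptor targets higher. The 4 ratios kept their sign in every alternative run. With the longest transcript as length, 5 of the 7 genes kept their rank in cuprizone and 7 in control. Mbtps2, with 210 to 376 counts, is the member most limited by depth.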
